A study of Mus musculus with 9 samples.

Results

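The genes described here encode the proteins of the mitochondrial ribosome, as measured in *Ctcf*-deficient and control mouse hearts at E10.5. They were taken by name, as every gene whose symbol begins with Mrpl (large subunit) or Mrps (small subunit) followed by a digit, except *Mrpl23*. The rule found 76 of the 14011 genes in the table. Of these, 75 are protein-coding, 46 with a large subunit name and 29 with a small subunit name, and 1 is the pseudogene *Mrpl23-ps1*, which is given apart. Another 3 annotated symbols of this form, all pseudogenes, are not among the genes analysed. The protein-coding members are spread over 17 chromosomes, and every one had reads in all 9 libraries, from 80 to 1987 reads per library.

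Mitochondria translate the few proteins encoded by their own genome on a ribosome of their own. All of its proteins are encoded in the nucleus, made in the cytosol and imported, so the assembly of the large and small subunits depends on many unlinked nuclear genes. The proteins made on it are core parts of the respiratory chain, on which the heart relies heavily. Some members have a counterpart in bacterial ribosomes and others are found only in mitochondria. The name does not always give the place. The proteins of *Mrps18a* and *Mrps30* sit in the large subunit, and that of *Mrps36* belongs to the 2-oxoglutarate dehydrogenase complex.

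RNA was sequenced from 3 groups of hearts of mixed strain, with 3 libraries each and a pool of 6 hearts per library. Homozygotes were *Ctcf* fl/fl; *Nkx2.5-Cre*/+, and heterozygotes were *Ctcf* fl/+; *Nkx2.5-Cre*/+. Controls carried no Cre; the labels give them as *Ctcf* fl/fl and the methods of the study as *Ctcf* fl/+. Cre was present in heterozygotes and homozygotes only, so a difference from controls holds the driver as well as the deletion, and the driver acts in cardiac progenitors and their descendants, so other cells of the heart keep *Ctcf*. The 3 groups of columns were matched to the genotypes by their names, and control and heterozygote libraries are numbered by the digit that ends the column name, which ties them to no particular pool.

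The libraries held 4294537 to 11629365 reads, and a single read added 0.0901 to 0.231 to a normalised value. *Ctcf*, which encodes the deleted zinc finger protein, had normalised values of 121, 122 and 122 in controls, 101, 94.2 and 97.0 in heterozygotes and 79.6, 80.0 and 84.7 in homozygotes. Homozygotes thus kept 67.0% of the control level (log2 fold change -0.57, limma adjusted p = 2.91e-05). The 9 cardiomyocyte markers were all well expressed, with summed values of 14235 to 16955 in controls and 12726 to 15957 in homozygotes. All 6 erythroid markers, globin and heme synthesis genes among them, rose in homozygotes against controls and against heterozygotes, and their summed value was 28285 to 40226 in controls, 22573 to 37820 in heterozygotes and 49707 to 65492 in homozygotes. Against controls, 2 of 4 epicardial markers rose, and 2 of 4 cushion mesenchyme and 2 of 9 cardiomyocyte markers fell. Against heterozygotes, 2 of 4 epicardial markers rose, and 1 of 4 cushion mesenchyme and 4 of 9 cardiomyocyte markers fell. The cardiomyocyte summed value of 16470 to 19561 in heterozygotes did not overlap that of homozygotes. Of 6 endothelial markers 1 rose and 1 fell against controls and 1 fell against heterozygotes, and 1 of 4 measured macrophage markers fell against each. Of the 4 liver markers, the summed value was 774 in control 1 and between 4.84 and 70.2 in the other libraries. In bulk hearts, fewer cells of a type and less RNA per cell cannot be told apart.

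Promoter windows of the members with the largest changes in either direction are shown first, to let their letters be compared. The windows run from 250 bases before to 50 after the start, and were taken from RefSeq on GRCm38.p6, in which 66 of the 75 protein-coding members had 72 windows. *Mrpl4*, *Mrpl13*, *Mrpl15*, *Mrpl19*, *Mrpl38*, *Mrpl54*, *Mrps28*, *Mrps34* and *Mrps35* had none. Capitals mark matches, on either strand, to 5 motifs linked to housekeeping or mitochondrial promoters or to CTCF, namely the palindromic NRF1 motif, ETS (CCGGAAG), YY1 (AANATGGCG), SP (GGGCGG) and a core part of the CTCF motif. Matches that share bases run together in 1 stretch of capitals. *Mrps2* is the member that fell, and *Mrps16*, *Mrps24* and *Mrpl33* had the largest rises. Their windows are at chr2:28467816-28468115 (plus strand), chr14:20393441-20393740 (minus strand, the one nearer the gene of 2 windows), chr11:5707652-5707951 (minus strand) and chr5:31613701-31614000 (plus strand).
Mrps2: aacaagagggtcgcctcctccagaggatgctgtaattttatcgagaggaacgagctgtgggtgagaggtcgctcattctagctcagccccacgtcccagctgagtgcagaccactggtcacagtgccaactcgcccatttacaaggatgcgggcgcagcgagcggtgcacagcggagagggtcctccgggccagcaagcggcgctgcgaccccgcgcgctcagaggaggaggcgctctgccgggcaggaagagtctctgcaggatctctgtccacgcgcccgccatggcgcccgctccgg
Mrps16: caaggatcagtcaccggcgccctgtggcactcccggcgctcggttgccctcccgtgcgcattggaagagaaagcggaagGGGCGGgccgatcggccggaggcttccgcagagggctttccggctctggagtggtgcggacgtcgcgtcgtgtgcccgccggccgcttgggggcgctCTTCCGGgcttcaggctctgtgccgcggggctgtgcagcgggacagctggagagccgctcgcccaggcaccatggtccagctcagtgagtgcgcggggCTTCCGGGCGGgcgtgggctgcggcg
Mrps24: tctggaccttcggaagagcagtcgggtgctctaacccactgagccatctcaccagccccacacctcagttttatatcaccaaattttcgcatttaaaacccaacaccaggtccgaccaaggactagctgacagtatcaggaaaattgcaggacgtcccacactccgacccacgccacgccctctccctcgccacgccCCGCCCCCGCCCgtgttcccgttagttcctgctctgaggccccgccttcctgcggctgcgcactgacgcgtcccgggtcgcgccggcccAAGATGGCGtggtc
Mrpl33: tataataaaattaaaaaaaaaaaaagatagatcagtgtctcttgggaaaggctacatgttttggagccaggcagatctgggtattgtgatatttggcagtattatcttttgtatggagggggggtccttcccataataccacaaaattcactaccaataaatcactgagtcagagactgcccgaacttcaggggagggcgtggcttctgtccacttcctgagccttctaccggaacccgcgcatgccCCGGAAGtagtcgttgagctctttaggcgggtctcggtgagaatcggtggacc

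The window of *Mrps2* held none of the 5 motifs. An ETS match stood in those of *Mrps16* and *Mrpl33*, and a YY1 match in that of *Mrps24*. ETS matches were found in 33.3% of the members' windows, in 16.1% of the windows of all genes in the table and in 8.86% of all 32851 windows. For NRF1 the shares were 16.7%, 9.35% and 4.60%, and for YY1 13.9%, 4.59% and 2.38%. SP matches were in 51.4% of the members' windows and 61.8% of those of the genes in the table. The CTCF motif was in 2 of 72 member windows, those of *Mrpl20* and *Mrpl34*, or 2.78% beside 2.80% of the windows of the genes in the table. Among the 18 windows of members that rose in homozygotes against controls, 9 held an ETS match, 4 an NRF1 match, 1 a YY1 match and 9 an SP match. Among the 53 of members that were not called, 15 held an ETS match, 8 an NRF1 match, 9 a YY1 match and 28 an SP match. No difference between these sets was tested. These are letter matches in a short window and describe neither binding nor a cause.

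Per length, the members' levels in controls spanned 3.77 to 156 units of normalised value per kb of exonic length, with a median of 23.9. The highest were *Mrpl42* at 156, *Mrpl12* at 92.5, *Mrpl52* at 83.4, *Mrpl18* at 65.2 and *Mrpl11* at 55.2 per kb. The lowest were *Mrps10* at 3.77, *Mrps35* at 6.34, *Mrpl33* at 6.37, *Mrpl1* at 6.64 and *Mrpl48* at 7.07 per kb. Reads of *Mrpl42* may be shared with a near-identical copy on chromosome 10, and the exonic length is the union of all annotated exons, which lowers the value of genes with long alternative exons.

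In homozygotes against controls, 19 of the 75 protein-coding members rose and 1, *Mrps2*, fell. Over all 14011 genes, 7.19% were called higher and 8.03% lower by the same test. The log2 fold change was positive in 71 members, beside 49.9% of all genes, and negative in 4, with a median of 0.16, beside a median of -0.001 over all genes. Among large subunit names, 12 of 46 rose and 0 fell, with a median of 0.17 and a range of -0.02 to 0.48. Among small subunit names, 7 of 29 rose and 1 fell, with a median of 0.15 and a range of -0.68 to 0.65. In 35 members all homozygote libraries were higher than all controls, beside 16.6% of all genes, and in 1 all were lower, beside 16.5%. The test was limma on log2(value + 0.5) with adjustment over all genes, called at an adjusted p under 0.05. With 3 libraries against 3, an exact permutation test of a single gene cannot go below p = 0.10. Which members rose depended on the libraries, since 5 to 18 were called when each library was left out in turn, with 5 without homozygote 3, 6 without control 3 and 12 without control 1. The share of all genes called in these fits was not worked out, so these counts cannot be set against it.

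**Figure D1:**
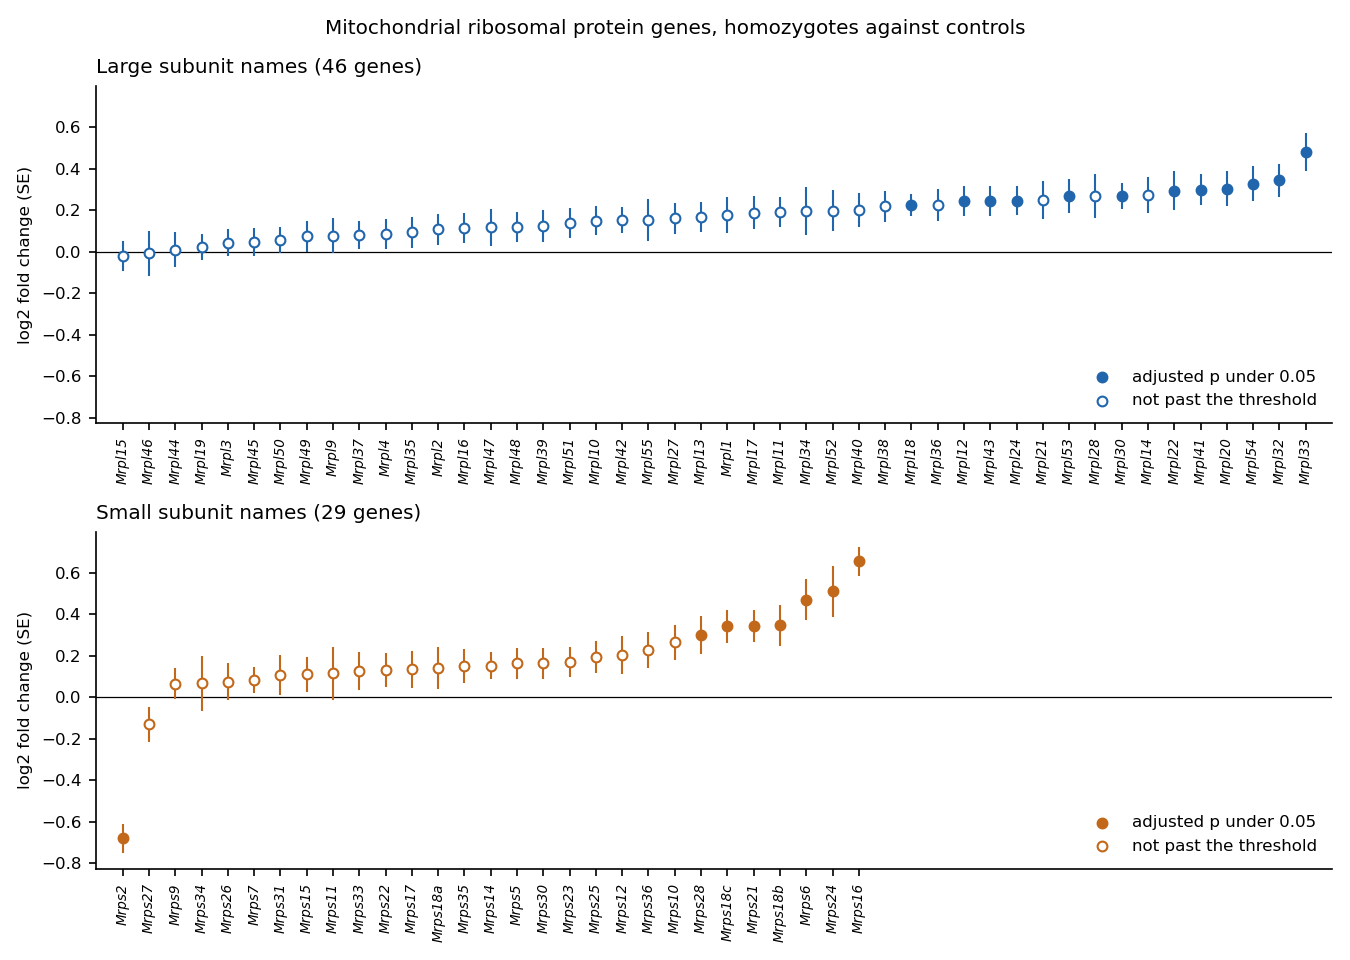
Log2 fold change of each protein-coding member in homozygotes against controls, with bars for 1 SE, in 46 large and 29 small subunit genes ordered by size. Filled points passed an adjusted p of 0.05 and open points did not, and most points of both subunits lie above 0, with *Mrps2* far below at -0.68.

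The small shift of the members was seen in each homozygote library. Against the control mean, the median log2 deviation of large subunit genes was 0.172, 0.155 and 0.212 in homozygotes 1, 2 and 3. It was -0.007, 0.055 and -0.049 in the controls and 0.072, 0.035 and 0.045 in the heterozygotes. For small subunit genes the medians were 0.153, 0.191 and 0.213 in homozygotes, between -0.040 and 0.041 in controls and between 0.028 and 0.050 in heterozygotes. In both subunits the homozygote medians lay above those of the 6 other libraries. The share of all reads that fell on large subunit genes was 0.222% to 0.237% in controls, 0.231% to 0.243% in heterozygotes and 0.240% to 0.250% in homozygotes, so heterozygotes and homozygotes overlapped on this measure. The share on small subunit genes was 0.115% to 0.122% in controls, 0.119% to 0.122% in heterozygotes and 0.123% to 0.128% in homozygotes, which lay above the other libraries. The 3 homozygote libraries were also those with the highest erythroid marker sums, and the part of these or other cells in the members' shift was not tested.

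**Figure D2:**
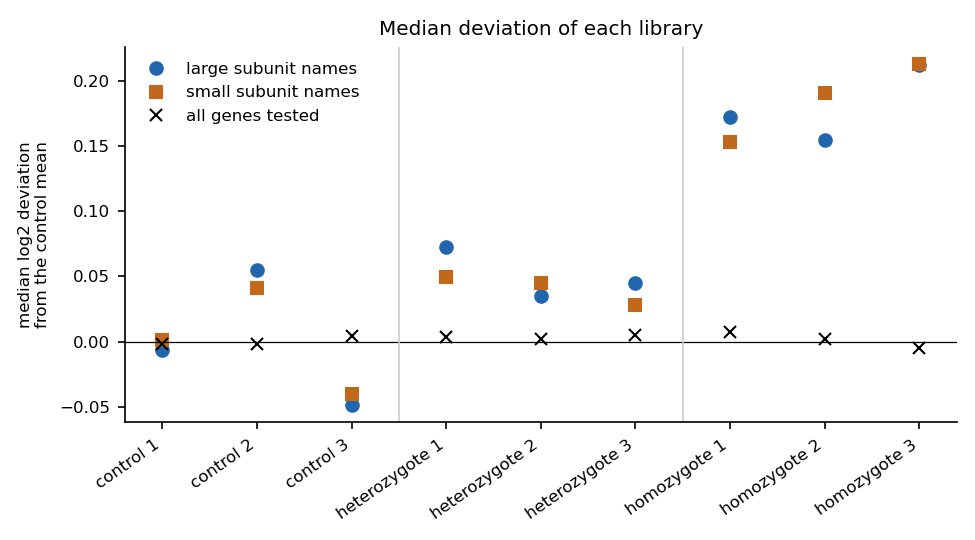
Median log2 deviation from the control mean in each of the 9 libraries, for large subunit genes (circles), small subunit genes (squares) and all genes tested (crosses). Both subunits lie between 0.153 and 0.213 in homozygotes, while all genes stay close to 0 in every library.

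*Mrps2*, which encodes the counterpart of the bacterial small subunit protein of the same number, was the 1 member called lower. On NCBIM37 it lies on the plus strand of chromosome 2, from 28323586 to 28326698 (ENSMUSG00000035772). Its normalised values were 54.8, 50.8 and 51.8 in controls, 52.1, 54.6 and 55.2 in heterozygotes and 32.8, 30.5 and 34.3 in homozygotes. The homozygotes were all below the other 6 libraries, and controls and heterozygotes overlapped. Homozygotes had 62.0% of the control level (log2 fold change -0.68, SE 0.07, limma adjusted p = 5.33e-05) and 60.3% of the heterozygote level (log2 fold change -0.72, limma adjusted p = 4.78e-05). Heterozygotes differed from controls by 0.04 on the log2 scale (limma adjusted p = 0.948). *Mrps2* shares no exon with another annotated gene and had no near-identical copy, and it was called lower under all 21 alternative settings.

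Of the genes near *Mrps2*, *Gm347*, whose start is 21266 bases away, also fell in homozygotes. Its values were 9.72, 10.2 and 9.28 in controls, 12.1, 11.0 and 8.65 in heterozygotes and 6.02, 6.52 and 5.54 in homozygotes. The log2 fold change was -0.65 against controls (limma adjusted p = 0.0117) and -0.76 against heterozygotes (limma adjusted p = 0.00581). *Ralgds*, an exchange factor for Ral GTPases further along, was called lower against heterozygotes (log2 fold change -0.37, limma adjusted p = 0.0269), and its log2 fold change against controls was -0.22 (limma adjusted p = 0.163). *Gtf3c5*, a subunit of a general factor of RNA polymerase III, was not called, with log2 fold changes of 0.03 against controls and -0.11 against heterozygotes. These neighbours were singled out after their values were seen.

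*Mrps16*, likewise a counterpart of a bacterial small subunit protein, had the largest rise. It lies on chromosome 14 from 21210453 to 21212777 on the minus strand of NCBIM37 (ENSMUSG00000049960). The normalised values were 31.4, 32.0 and 30.0 in controls, 33.8, 34.0 and 36.1 in heterozygotes and 49.6, 48.5 and 49.7 in homozygotes. No library of 1 group overlapped another group. Homozygotes had 158% of the control level (log2 fold change 0.65, SE 0.07, limma adjusted p = 6.34e-05) and 142% of the heterozygote level (log2 fold change 0.50, limma adjusted p = 0.000722). The difference of heterozygotes from controls, 0.15 on the log2 scale, was not called (limma adjusted p = 0.677). *Mrps16* has a copy on chromosome 3 with 95.6% identity, so its reads could have been split. The adjacent *Dnajc9*, a histone chaperone gene whose start is 4645 bases away, had a log2 fold change of 0.01.

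**Figure D3:**
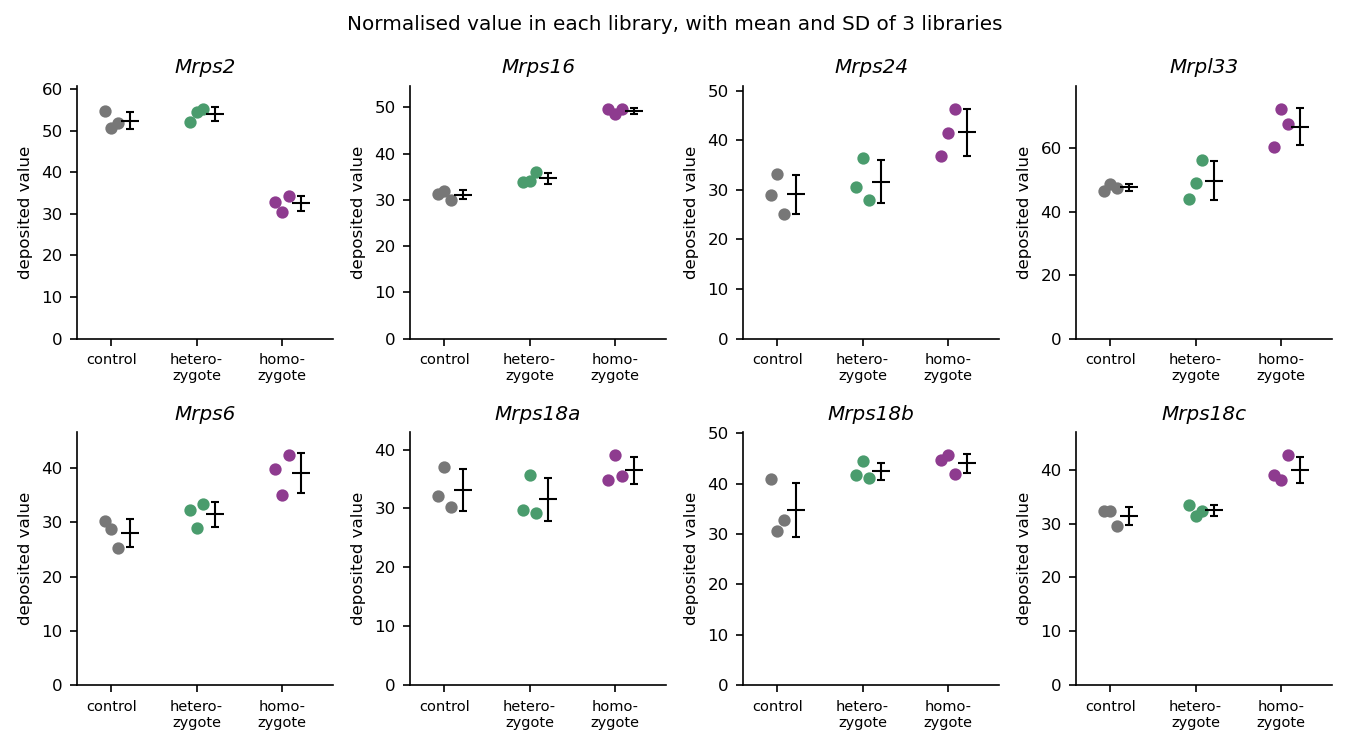
Normalised value of 8 members in each library (points), with the mean and SD of the 3 libraries of each group beside them, on axes that start at 0. *Mrps2* is lower in homozygotes, *Mrps16*, *Mrps24*, *Mrpl33*, *Mrps6* and *Mrps18c* are higher, *Mrps18b* has a wide spread in controls, and the groups overlap for *Mrps18a*.

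Next in size among small subunit names was *Mrps24*, the mitochondrial relative of another bacterial small subunit protein. Its values were 28.9, 33.2 and 25.2 in controls, 30.6, 36.4 and 28.0 in heterozygotes and 36.9, 41.6 and 46.3 in homozygotes (log2 fold change 0.51 against controls, limma adjusted p = 0.0132). The homozygotes lay above the other libraries, with a wide spread in every group, and the call was lost without control 3, without homozygote 3 and with limma without the trend. Against heterozygotes *Mrps24* rose by 0.39 on the log2 scale (limma adjusted p = 0.0491), a call lost under 9 of 21 alternative settings. *Mrps24* shares 15.4% of its exonic length with *Urgcp* on the same strand, which had a log2 fold change of -0.05. Of the other genes nearby, *Pgam2*, a muscle enzyme of glycolysis whose start is 88053 bases away, rose by 1.12 against controls (limma adjusted p = 6.7e-07) and 0.91 against heterozygotes, and was singled out after its values were seen. *Mrps6* had values of 30.3, 28.7 and 25.2 in controls, 32.3, 29.0 and 33.3 in heterozygotes and 39.9, 35.1 and 42.4 in homozygotes (log2 fold change 0.47, limma adjusted p = 0.00701). It was called against controls under all 21 alternative settings and missed the threshold against heterozygotes (log2 fold change 0.30, limma adjusted p = 0.057). It shares 43.8% of its exonic length with *Slc5a3*, a myo-inositol transporter gene on the same strand with a log2 fold change of -0.15, so reads of the pair are hard to assign.

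*Mrpl33*, a counterpart of a small bacterial large subunit protein, had the largest rise among large subunit names. Normalised values were 46.4, 48.8 and 47.6 in controls, 44.1, 48.9 and 56.2 in heterozygotes and 60.5, 72.4 and 67.5 in homozygotes. All homozygotes were above all other libraries. The log2 fold change was 0.48 against controls (SE 0.09, limma adjusted p = 0.00387) and 0.43 against heterozygotes (limma adjusted p = 0.00865), and both calls held under all 21 alternative settings. *Mrpl33* shares 1.97% of its exonic length with *Bre* on the same strand, which also rose against controls (log2 fold change 0.27, limma adjusted p = 0.0383).

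Beside *Mrpl33*, 5 large subunit genes rose against both controls and heterozygotes. *Mrpl18* had values of 92.5, 90.3 and 90.7 in controls, 86.7, 89.4 and 85.2 in heterozygotes and 103, 109 and 108 in homozygotes. Against controls the log2 difference was 0.22 (limma adjusted p = 0.0154) and against heterozygotes 0.29 (limma adjusted p = 0.00428), and heterozygotes lay below controls in every library without being called. *Mrpl18* shares 10.1% of its exonic length with *Tcp1* on the opposite strand, whose log2 fold change against controls was also 0.22. The values of *Tcp1* were higher, from 539 to 670, so reads of the shared part are hard to assign. *Mrpl32*, whose protein is matured by a mitochondrial protease, rose by 0.34 and 0.32 on the log2 scale. *Mrpl41* rose by 0.30 against either group, *Mrpl30* by 0.27 and 0.21, and *Mrpl43* by 0.24 and 0.25. The call of *Mrpl30* against heterozygotes was lost under 13 of 21 alternative settings, and that of *Mrpl43* under 10 of 21 in each comparison. *Mrpl41* lost its call under 4 in each, and *Mrpl32* under 2 against controls and 5 against heterozygotes. Against controls *Mrpl18* lost its call under 3 and *Mrpl30* under 1. The proteins of *Mrpl41* and *Mrpl43* have no bacterial counterpart. For each of these genes the homozygotes lay above all 6 other libraries.

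Another 6 large subunit genes passed the test against controls and not against heterozygotes: *Mrpl12*, *Mrpl20*, *Mrpl22*, *Mrpl24*, *Mrpl53* and *Mrpl54*. *Mrpl12*, a protein of the stalk that recruits translation factors, had values of 133, 154 and 138 in controls, 157, 148 and 147 in heterozygotes and 172, 153 and 179 in homozygotes. Its groups overlapped, and the log2 fold change was 0.24 (limma adjusted p = 0.0376). *Mrpl54* rose by 0.33, *Mrpl20* by 0.30, *Mrpl22* by 0.29, *Mrpl53* by 0.27 and *Mrpl24* by 0.25 on the log2 scale. Their log2 fold changes against heterozygotes were 0.20 to 0.26 for *Mrpl20*, *Mrpl22*, *Mrpl53* and *Mrpl54* and 0.14 for *Mrpl24*, and whether the comparisons differ was not tested. *Mrpl53* shares 87.1% of its exonic length with *Ccdc142* on the same strand, so its value is uncertain. The call of *Mrpl22* was lost under 14 of 21 alternative settings, and the calls of the other 5 under 6 to 11 of 21.

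Among small subunit names, *Mrps18c*, *Mrps21* and *Mrps28* also rose against both groups. *Mrps21* had values of 46.8, 46.0 and 47.4 in controls, 48.8, 51.2 and 44.6 in heterozygotes and 63.5, 54.4 and 60.8 in homozygotes (log2 fold change 0.34 against controls, limma adjusted p = 0.00999). *Mrps28* rose by 0.30 against controls and 0.36 against heterozygotes on the log2 scale, with the homozygotes above the other libraries. Its call against controls (limma adjusted p = 0.0447) was lost under 13 of 21 alternative settings. A near-identical copy of *Mrps21* lies on chromosome 7, with 98.2% identity.

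The paralogs *Mrps18a*, *Mrps18b* and *Mrps18c*, all related to 1 bacterial protein, differed in their values. *Mrps18c* had values of 32.4, 32.3 and 29.5 in controls, 33.5, 31.5 and 32.4 in heterozygotes and 38.9, 38.2 and 42.6 in homozygotes, with a log2 fold change of 0.34 against controls (limma adjusted p = 0.0115) and 0.29 against heterozygotes (limma adjusted p = 0.0266). *Mrps18b* had values of 40.9, 30.7 and 32.8 in controls, 41.6, 44.5 and 41.2 in heterozygotes and 44.6, 45.6 and 41.9 in homozygotes. The log2 fold change of *Mrps18b* was 0.35 against controls (limma adjusted p = 0.0301), a call lost under 8 of 21 alternative settings, and 0.05 against heterozygotes (limma adjusted p = 0.775). Heterozygotes differed from controls by 0.29 on the log2 scale, which was not called (limma adjusted p = 0.489). Control 1 stood apart from the other controls for this gene. *Mrps18a* was not called, with log2 fold changes of 0.14 against controls and 0.21 against heterozygotes. Whether the paralogs differ from each other was not tested. *Mrps18b* has a near-identical copy on chromosome 2 over 65.3% of its longest protein-coding transcript and an antisense overlap with *Gm16279*.

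Few members had a log2 fold change near or below 0 against controls. After *Mrps2*, the lowest log2 fold changes against controls were -0.13 for *Mrps27* (limma adjusted p = 0.329), -0.02 for *Mrpl15*, -0.01 for *Mrpl46* and 0.01 for *Mrpl44*, and none of these 4 was called. Against heterozygotes 61 members had positive and 14 negative log2 fold changes, beside 6897 and 7114 of all 14011 genes. Those of *Mrps27*, *Mrpl46*, *Mrpl15* and *Mrpl44* were -0.18, -0.17, -0.15 and -0.11, again without a call. For *Mrpl15*, *Mrpl44* and *Mrpl46* the homozygotes all lay below the heterozygotes. *Mrps27*, a member of the pentatricopeptide repeat family, had values of 46.3, 50.3 and 49.5 in controls and 39.6, 44.4 and 49.7 in homozygotes, which overlap. *Mrpl36*, which encodes a very short protein, had values of 41.6, 45.3 and 40.3 in controls and 46.7, 49.2 and 53.1 in homozygotes, without overlap, and a log2 difference of 0.23 that was not called (limma adjusted p = 0.0617). In all, 33 large and 19 small subunit genes were called in none of the 3 comparisons.

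Homozygotes were next compared with heterozygotes, which carry the same driver. Here 14 of the 75 members rose and 1, *Mrps2*, fell, beside 6.87% and 6.7% of all genes. The median log2 fold change was 0.13 for large subunit names, of which 7 rose, and 0.14 for small subunit names, of which 7 rose and 1 fell. All homozygote libraries were higher than all heterozygotes in 30 members, beside 15.3% of all genes, and lower in 4, beside 15.5%. *Mrpl14* (log2 fold change 0.34, limma adjusted p = 0.0227), *Mrps23* (0.27, limma adjusted p = 0.028) and *Mrps36* (0.33, limma adjusted p = 0.021) passed this test and not the one against controls, where their log2 fold changes were 0.27, 0.17 and 0.23. Their calls against heterozygotes were lost under 6, 7 and 5 of 21 alternative settings, removal of the length trend among them for each gene. Both comparisons share the homozygote libraries. Once the dependence on exonic length described further on was taken out, the median was 0.02 for large and 0.09 for small subunit names. Then 29 of 46 large subunit genes were positive, beside 7070 of all 14011 genes. The number that rose was then 4, and it was also 4 with DESeq2. It was 4 without homozygote 3, 6 without heterozygote 3, 7 without heterozygote 2, 8 without heterozygote 1 and 9 without homozygote 1. The share of all genes called with DESeq2 or without single libraries was not worked out.

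Between heterozygotes and controls, 0 of the 75 members were called by limma, beside 0.143% of all genes, and 0 by edgeR or DESeq2. At an unadjusted p under 0.05 there were 2, beside 1032 of all 14011 genes, *Mrpl38* (log2 fold change 0.25) and *Mrps18b* (log2 fold change 0.29). *Mrpl38* had values of 38.4, 42.5 and 38.2 in controls, 48.9, 47.4 and 45.3 in heterozygotes and 49.2, 45.3 and 44.4 in homozygotes. The median log2 fold change of the members was 0.05. In 11 members all heterozygote libraries were higher than all controls, beside 7.41% of all genes, and in 2 below, beside 6.93%.

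The pseudogene *Mrpl23-ps1* on chromosome 2 had values of 26.8, 35.5 and 32.1 in controls, 29.9, 27.4 and 39.1 in heterozygotes and 25.1, 19.0 and 25.7 in homozygotes. Every homozygote value was below the other libraries, and the log2 fold change of -0.43 was not called (limma adjusted p = 0.0664).

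Member genes are short, with a median exonic length of 1693 bases beside 3669 over all genes, and short genes as a whole were higher in homozygotes. With all genes split by length into 10 equal groups, the median log2 fold change was 0.17 in the shortest group and -0.16 in the longest. The 28 members in the shortest group had a median of 0.23, and the 14 in the next group had 0.16 beside 0.07 for all genes there. Across the 75 members, log2 fold change and log10 length gave a Pearson r of -0.29 and a Spearman rho of -0.41, beside -0.24 and -0.31 across 13987 genes, and genes are not independent replicates. When the trend with exonic length was removed in each library, 8 members were called higher and 1, *Mrps2*, lower, beside 5.5% and 5.32% of all genes. Of the 8, only *Mrpl33*, *Mrps6*, *Mrps16* and *Mrps24* were also called without the removal, and the others were the long genes *Mrpl13*, *Mrps5*, *Mrps10* and *Mrps25*. In the comparison with heterozygotes, 4 were called higher and 1 lower, beside 5.81% and 5.54%. The median log2 fold change against controls was then 0.08 for large and 0.09 for small subunit names. It was positive in 58 of 75 members, beside 6940 of all 14011 genes. The count of members that rose and the size of the shift thus moved with this choice, and the cause of the length trend was not tested.

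**Figure D4:**
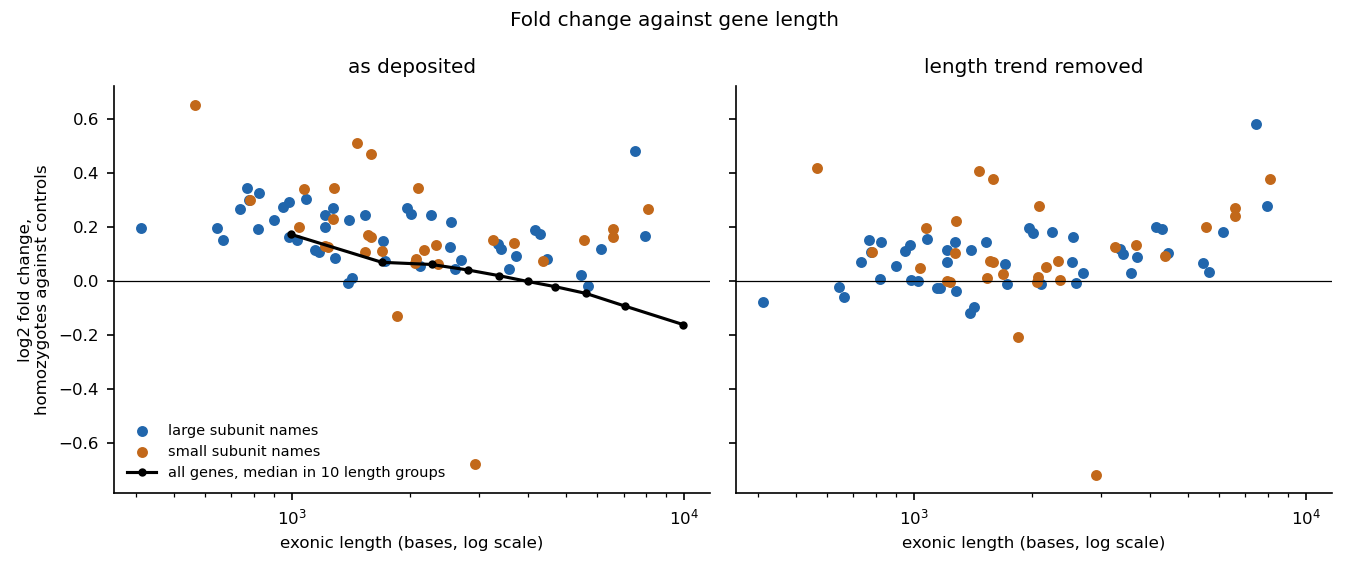
Log2 fold change in homozygotes against controls against exonic length (log scale) for large and small subunit genes, as deposited (left) and with the length trend removed (right). The line on the left gives the median of all genes in 10 equal groups by length, which falls from 0.17 to -0.16, and most members lie above it.

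Many members share sequence or promoters with other genes. A near-identical copy (at least 95% identity over at least 50% of the longest protein-coding transcript) was found for 12 members, with a median log2 fold change of 0.27. The 6 of these that rose against controls were *Mrpl22*, *Mrpl30*, *Mrpl32*, *Mrps16*, *Mrps18b* and *Mrps21*. *Mrps36*, called against heterozygotes only, also has copies, on chromosomes 7 and 17. Another gene shares exonic bases with 26 members, with a median of 0.16. The 9 of these that rose were *Mrpl12*, *Mrpl18*, *Mrpl24*, *Mrpl33*, *Mrpl43*, *Mrpl53*, *Mrps6*, *Mrps18b* and *Mrps24*. *Mrpl24* shares 26.3% of its exonic length with *Rrnad1* on the opposite strand. *Mrpl14*, called against heterozygotes only, shares 11.2% with *Tmem63b* on the opposite strand. In the 40 members with neither, 5 rose and 1 fell, with a median of 0.15. Median exonic length was 1255 bases with a copy, 1929.5 with an overlap and 1641.5 with neither. Whether these sets differ was not tested. Of all genes, 7.19% rose and 8.03% fell. A partner gene starting within 1000 bases on the opposite strand was annotated for 31 members, 9 of which rose, with a median of 0.16. The 27 such partners in the table that are not members themselves had a median of -0.001, and 3 rose, beside 7.19% of all genes: *Tcp1*, a subunit of the cytosolic chaperonin beside *Mrpl18* (log2 fold change 0.22, limma adjusted p = 0.0164), *Ndufb5*, a subunit of respiratory complex I beside *Mrpl47* (0.28, limma adjusted p = 0.00548), and *Pnpla7*, a lysophospholipase gene beside *Mrpl41* (0.62, limma adjusted p = 0.0188). The partners are longer, with a median exonic length of 4521 bases beside 1729 for the members with a partner. These medians are without removal of the length trend, and the difference between members and partners was not tested. *Mrpl46* and *Mrps11* are partners of each other, and neither was called.

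Other genes of mitochondrial translation were taken from lists fixed by name. Of 7 mitochondrial ribosomal proteins with other symbols, 2 rose against controls, beside 7.19% of all genes, *Chchd1* (log2 fold change 0.34, limma adjusted p = 0.00851) and *Aurkaip1* (0.33, limma adjusted p = 0.014), and the median was 0.17. *Chchd1* had values of 59.5, 62.2 and 54.9 in controls, 61.3, 58.6 and 56.6 in heterozygotes and 68.5, 77.9 and 77.6 in homozygotes. Against heterozygotes 3 of the 7 rose, beside 6.87% of all genes, the third being *Mrp63* (log2 fold change 0.40, limma adjusted p = 0.0193).

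Of 17 factors of mitochondrial translation, 1 rose and 2 fell against controls, with a median log2 fold change of -0.04, beside 7.19% and 8.03% of all genes. *Gfm1*, the mitochondrial elongation factor that moves the ribosome along the messenger, had values of 109, 114 and 114 in controls, 118, 124 and 128 in heterozygotes and 78.5, 89.6 and 76.1 in homozygotes. It fell by 0.46 on the log2 scale against controls (limma adjusted p = 0.000759) and by 0.60 against heterozygotes (limma adjusted p = 0.000145), with homozygotes below all other libraries. *Lrpprc*, which stabilises mitochondrial messengers, fell by 0.23 (limma adjusted p = 0.0255), and *Mrrf*, the ribosome recycling factor, rose by 0.35 (limma adjusted p = 0.0304). Against heterozygotes 4 fell and 0 rose, beside 6.7% and 6.87% of all genes. Beside *Gfm1* and *Lrpprc* these were *Taco1*, an activator of translation of a cytochrome oxidase subunit, which fell by 0.39 (limma adjusted p = 0.0237), and *Oxa1l*, which inserts new proteins into the inner membrane and fell by 0.25 (limma adjusted p = 0.0227).

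Of 23 assembly factors, 22 were measured. Against controls 0 rose and 1 fell, beside 7.19% and 8.03% of all genes, with a median of 0.01. The gene that fell was *Dhx30*, an RNA helicase (log2 fold change -0.25, limma adjusted p = 0.0139). It also fell against heterozygotes (log2 fold change -0.26, limma adjusted p = 0.0116), where the median of the list was -0.07. Median exonic length was 3104 bases for the translation factors and 3524.5 for the assembly factors, beside 1693 for the members. The medians of these lists are without removal of the length trend. The differences between these lists and the ribosomal proteins were not tested.

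**Figure D5:**
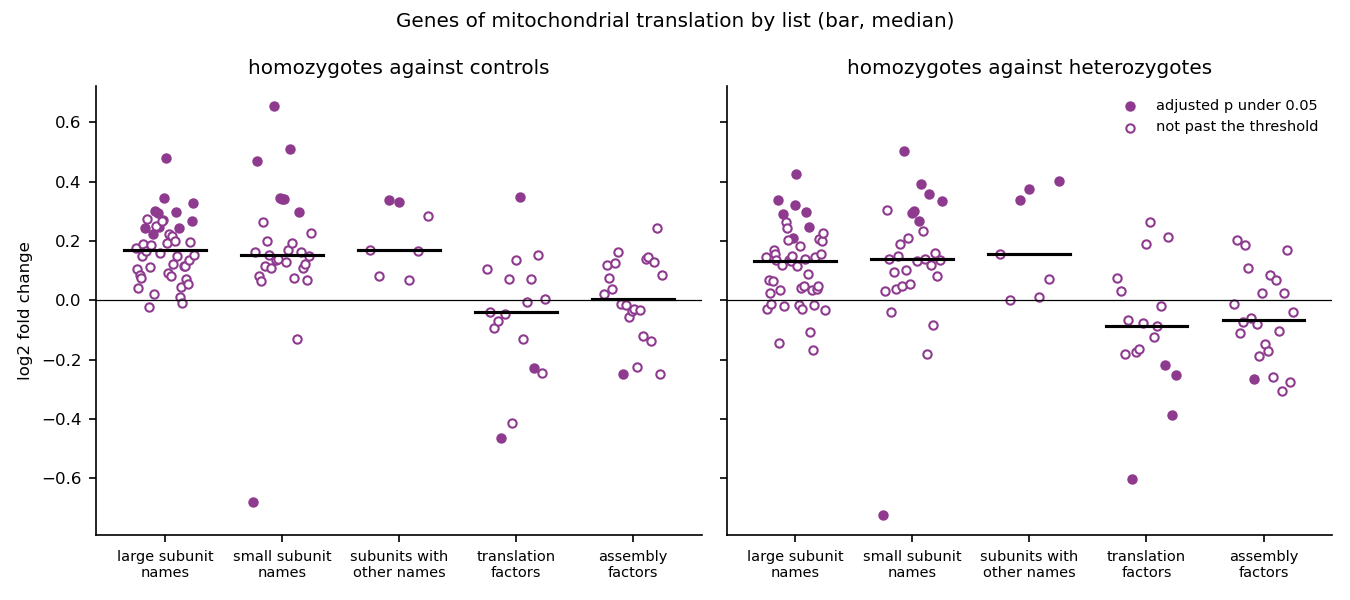
Log2 fold change of single genes in 5 lists of mitochondrial translation, in homozygotes against controls (left) and against heterozygotes (right), with bars for the medians. Filled points passed an adjusted p of 0.05. The medians of ribosomal proteins lie at 0.13 to 0.17 and those of translation and assembly factors, which are longer genes, at -0.09 to 0.01. The length trend was not removed.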

How the data were processed

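The authors sequenced poly(A) RNA on a GAIIx instrument. Their processing notes list CASAVA 1.8, cutadapt 1.6.1, Bowtie2, RSEM 1.20 and limma, and the mouse build NCBIM37. They deposited 1 table of normalised signal values for 14011 genes. Whole reads were recovered for 100% of the deposited signal values (within 0.001 reads), and the scaling equalled edgeR's TMM factors, from 0.955 to 1.03. Columns were assigned to genotypes by name: KO to homozygotes, DH (double heterozygous) to heterozygotes and Het to controls, although sample titles use HET for heterozygotes. Nothing says that pools came from separate litters, so p-values measure the spread between pools.

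Values were fitted as log2(value + 0.5), which understates changes of low genes, with limma 3.58.1 in R 4.3.3 for all 9 libraries in 3 groups with 1 mean-variance trend. Benjamini-Hochberg adjustment covered all 14011 genes. On simulated data the fit called 164 of 200 genes changed by 1 on the log2 scale, a larger change than that of any member, and 12 unchanged ones. Gene names and lengths came from GENCODE M1 on NCBIM37, which held 13987 of the genes. Copies were searched with BLAST+ 2.17.0. Alternatives were pseudocounts of 0.1 and 1, filters at a mean value of 5 and 20, only the groups compared, quantile normalization, removal of the length trend by loess, limma without the trend, edgeR 4.0.16, DESeq2 1.42.0 and voom on the recovered reads, a threshold of 0.01, a replicate block and leaving out each library. Members and lists were chosen with earlier results of these data known. Named were members called in any comparison, the 5 highest and 5 lowest per kb, the 5 lowest fold changes, the Mrps18 paralogs, *Mrpl12*, *Mrpl36* and *Mrps36*, called genes of the pathway lists and *Ctcf*. Other members, such as *Mrpl38*, and neighbouring genes were named after their values were seen. Protein sequences were not used here.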

Additional observations from a re-analysis of the deposited data

How the results depend on the processing

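The fall of *Mrps2* was the single lower call in both homozygote comparisons, and no member was called between heterozygotes and controls, in every alternative. Against controls, *Mrps16*, *Mrpl33* and *Mrps6* were called higher in all 21 alternatives, and against heterozygotes *Mrps16*, *Mrpl33* and *Mrpl18*. The number of members called higher in homozygotes against controls, 19, was 8 with the length trend removed, 10 without limma's trend, 11 with DESeq2 and 4 at an adjusted p under 0.01, and 5 to 18 without single libraries. Against heterozygotes it went from 14 to 4, 8, 4 and 3 in the same order, and to 4 to 16 without single libraries. Medians with the length trend removed were 0.0780 (large) and 0.0920 (small) against controls and 0.0242 and 0.0942 against heterozygotes. Without single libraries, the small subunit median ranged from 0.13 to 0.20 against controls and from 0.10 to 0.17 against heterozygotes, and the large subunit median from 0.14 to 0.20 and from 0.10 to 0.14. Except for the length removal, the share of all genes called under each alternative was not worked out. The cause of these moves was not tested.

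Libraries with the same number did not deviate together (correlations from -0.04 to 0.09), so the numbers were not taken as pairs. With a replicate block, 13 members were called higher against controls and 11 against heterozygotes, and *Mrps2* stayed lower in both.

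Sign changes were followed gene by gene only in the members named by rule, and others also changed sign. With the length trend removed, 17 of all 75 members were negative against controls, beside 4 without removal, and 23 beside 14 against heterozygotes. Of those followed that changed sign, *Mrpl15*, *Mrpl44* and *Mrpl46* had log2 fold changes near 0. Those of *Mrpl42* and *Mrpl52* were 0.15 and 0.20 against controls and 0.09 and 0.16 against heterozygotes. Among the members followed, the reversed log2 fold changes against controls with the length trend removed were 0.0316 for *Mrpl15*, -0.0605 for *Mrpl42*, -0.10 for *Mrpl44* and -0.0794 for *Mrpl52*. Against heterozygotes they were -0.11 for *Mrpl42* and -0.10 for *Mrpl52*. *Mrpl44* gave -0.00390 with edgeR, -0.00172 with DESeq2 and -0.0118 with voom. Without single libraries the values ranged from -0.0539 to 0.0385 for *Mrpl15*, from -0.0254 to 0.0747 for *Mrpl44* and from -0.120 to 0.0641 for *Mrpl46*. Depth limits members with few reads, of which the lowest had 80 in a library.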
